A study of Mus musculus with 20 samples.

Results

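The bZIP transcription factors Batf, Batf3, Jun, Junb, Fos, Fosl2 and Bach2 and the interferon regulatory factors Irf4 and Irf8 were followed through the culture of mouse CD8 and CD4 T cells. These 9 genes were taken by symbol from the 49671 genes of the count table, and all 9 were among the 13290 genes with enough reads to be tested. There were 5 libraries each of CD8 cells at week 4 and at week 1, and of CD4 cells at week 3 and at week 1. Irf8 fell during culture in both cell types, to 30.4 ± 15.2 CPM at CD8 week 4, against 126 ± 46.0 CPM at CD8 week 1, and to 4.61 ± 3.42 CPM at CD4 week 3, against 24.9 ± 12.6 CPM at CD4 week 1 (SD, n = 5 each). Batf3 fell in CD8 cells to 0.0702 ± 0.0879 CPM at week 4, against 11.2 ± 12.2 CPM at week 1, and Jun rose there to 249 ± 38.8 CPM, against 142 ± 19.3 CPM. In CD4 cells Batf and Irf4 fell. Irf4 was also lower at CD8 week 4 than at CD8 week 1 (log2 fold change -1.03), which missed an adjusted p of 0.05 with edgeR (0.0626). Bach2 and Fos were lower, and Irf4, Irf8 and Fosl2 higher, in CD8 than in CD4 cells in both the early and the late comparison.

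CPM, the usual unit of read counts divided by sequencing depth, are here on library sizes scaled by the trimmed mean of M values, a method that makes most genes level between libraries. T cells from the spleen and inguinal lymph nodes of mice were enriched as CD4+ or CD8+ cells and activated on plates coated with antibodies to CD3 and CD28 in 1 ng/mL human IL-2. They were then expanded in 10 ng/mL human IL-7 and 50 ng/mL human IL-15. Week 1 libraries came after 4 days of expansion, CD4 week 3 libraries after 18 days and CD8 week 4 libraries after 25 days. All groups were sorted as CD44+CD62L+ cells at a purity above 97% before polyadenylated RNA was sequenced. Activation had lasted 72 h for polyclonal cells of albino B6 mice and 24 h for receptor-transgenic cells of the Marilyn-BLITC and MataHari-BLITC lines, and the labels do not say which library is of which kind. No group without culture is included, so all values describe cells that had been activated and kept in these cytokines. The sampling days differ between CD4 and CD8 cells, so cell type and culture time cannot be told apart in the comparison of CD8 week 4 with CD4 week 3.

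Proteins of the AP-1 family carry a basic leucine zipper, or bZIP, and bind DNA as dimers. JUN proteins pair with one another, with FOS proteins or with BATF proteins, and a BATF-JUN dimer binds together with IRF4 or IRF8 at composite sites in lymphocytes. BACH2 dimerises with small MAF proteins at sites that overlap AP-1 sites, represses genes there, and in mouse T cells is known to restrain effector differentiation and to favour memory cells. Batf and Irf4 are induced by T cell receptor signals and are needed for the growth of activated T cells.

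The upstream sequences of Jun and Irf8 are shown because these genes changed in opposite directions in CD8 cells, and because RefSeq and the authors' annotation place their starts at the same base. Each run gives the 250 bases before the start of the RefSeq gene (build GRCm38.p6), 5′ to 3′ on the strand of the gene. Jun lies at chr4:95052223-95052472 on the minus strand and Irf8 at chr8:120736108-120736357 on the plus strand, and capitals mark matches to the motifs searched.
Jun upstream: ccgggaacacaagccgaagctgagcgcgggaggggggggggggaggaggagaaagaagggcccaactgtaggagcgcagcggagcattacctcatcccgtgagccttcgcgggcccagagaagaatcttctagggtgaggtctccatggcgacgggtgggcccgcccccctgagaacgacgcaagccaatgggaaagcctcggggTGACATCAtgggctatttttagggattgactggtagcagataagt
Irf8 upstream: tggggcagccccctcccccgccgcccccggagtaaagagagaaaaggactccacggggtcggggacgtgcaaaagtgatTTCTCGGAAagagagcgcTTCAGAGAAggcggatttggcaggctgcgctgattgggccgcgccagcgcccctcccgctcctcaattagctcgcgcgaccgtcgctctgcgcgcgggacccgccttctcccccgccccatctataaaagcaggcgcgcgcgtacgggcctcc
In Jun the capitals mark TGACATCA, the variant AP-1 element known for binding JUN and ATF2, at bases -45 to -38 from the start. In Irf8 they mark matches to TTCNNNGAA, the letters of the element bound by STAT proteins, at -171 to -163 and at -153 to -145. All 9 genes were found in the RefSeq table, with 10 windows in all since Irf8 has an additional start. Searched on both strands, TGACATCA stood in 1 of the 10 windows and in 2.93% of the 32851 promoter windows in the table. TTCNNNGAA stood in 3 of the 10, those of Batf3, Bach2 and Irf8, and in 7.02% of all windows. The Bach2 window (chr4:32417185-32417434) lies after the start of the counted gene, at 32238804. The Batf3 window (chr1:191098164-191098413) likewise lies after its counted start, at 191097847. The consensus AP-1 site TGANTCA and the cAMP response element TGACGTCA stood in 0 of the 10, and in 6.75 and 1.55% of all windows. No match says only that these letters are not in these windows. The matches do not overlap one another.

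The libraries held 13.3 to 28.3 M counts each. The coreceptor genes fitted the labels, with 1018 to 2727 summed CPM of Cd8a and Cd8b1 in the CD8 libraries and 1.64 to 30.8 in the CD4 libraries, and with Cd4 at 520.2 to 903 CPM in CD4 libraries and at most 0.570 CPM in CD8 libraries. The titles of the libraries fall into number ranges: A holds CD8 replicates 1 to 3, B holds CD8 replicates 4 and 5, and C holds all CD4 libraries, so title range and cell type cannot be told apart between CD8 and CD4 cells. CD8 week 1 replicate 3 held the highest or the lowest value of its group for all 9 genes, with 1807 summed CPM of 7 proliferation genes, where the remaining CD8 week 1 libraries had 3638 to 4329. No other library held more than 6 such values. CD4 week 3 replicate 2, which held 5, had 2158 summed proliferation CPM, and the remaining CD4 week 3 libraries had 228 to 679.9. Proliferation genes moved with the long-term comparisons: 7 of 7 fell in CD8 cells and 3 of 7 in CD4 cells, and their part in the changes below was not tested. The labels name no animal or culture for any library and give no replicate numbers: the numbers used here follow accession order and pair no libraries. The p-values below rest on the spread between libraries alone, which may be technical.

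**Figure D1:**
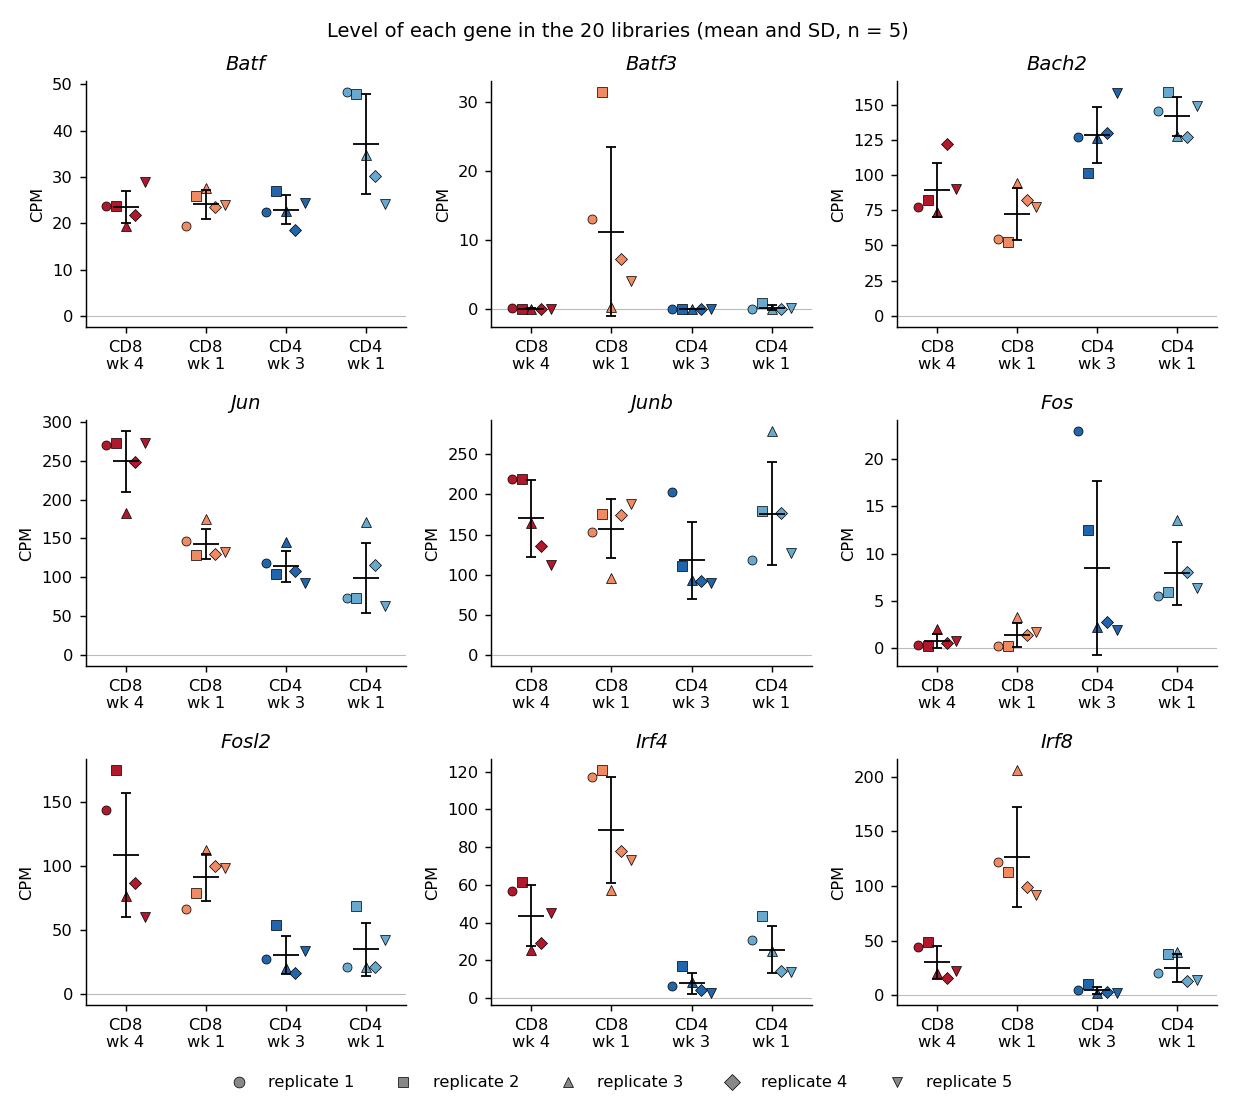
Level of each of the 9 genes in every library (vertical axis, CPM on a linear scale; horizontal axis, group). Points are libraries, with a shape for each replicate number; horizontal bars are means and whiskers SD (n = 5). All Jun values at CD8 week 4 (182 to 273 CPM) lie above those of every other library, and Batf3 is above 1 CPM in 4 CD8 week 1 libraries alone.

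Of the 9 genes, 1 rose and 2 fell between CD8 week 4 and CD8 week 1 (edgeR quasi-likelihood test, adjusted p under 0.05 over all 13290 genes), where 33.5% of all tested genes passed, 17.1% higher and 16.4% lower. Between CD4 week 3 and CD4 week 1, 0 rose and 3 fell, where 16.5% of all genes passed, 7.67% higher and 8.8% lower. The median log2 fold change of the 9 was -0.03 in CD8 and -0.58 in CD4 cells, against 0.03 and 0.01 over all tested genes. Irf8 alone was called in both. Batf3 is counted among the genes that fell in CD8 cells. It was testable mainly through CD8 week 1, where it was high, so that call is descriptive. The difference between the CD8 and the CD4 change passed for 0 of the 9 with edgeR, where 0.655% of all genes passed, 0.248% higher and 0.406% lower. At an unadjusted p under 0.05 it was 1 of the 9, Batf, and DESeq2 and limma-voom called 0 as well. A gene past the threshold in one cell type and not in the other is therefore not shown to have changed differently. In these bulk libraries fewer cells of a kind and less RNA per cell cannot be told apart.

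At week 1, 4 were higher in CD8 than in CD4 cells (Batf3, Irf4, Irf8 and Fosl2) and 3 lower (Batf, Bach2 and Fos), where 38.1% of all genes passed, 19.1% higher and 19% lower. In the late groups 4 were higher at CD8 week 4 than at CD4 week 3 (Irf4, Irf8, Jun and Fosl2) and 2 lower (Bach2 and Fos), where 32.7% of all genes passed, 17.7% higher and 15% lower. The median log2 difference of the 9 was 0.52 at week 1 and 1.13 late, against -0.01 and 0.01 over all tested genes. Batf3, counted as higher at week 1, was testable mainly through CD8 week 1, so that call is descriptive. These comparisons share libraries with the long-term comparisons, so they are not separate evidence.

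**Figure D2:**
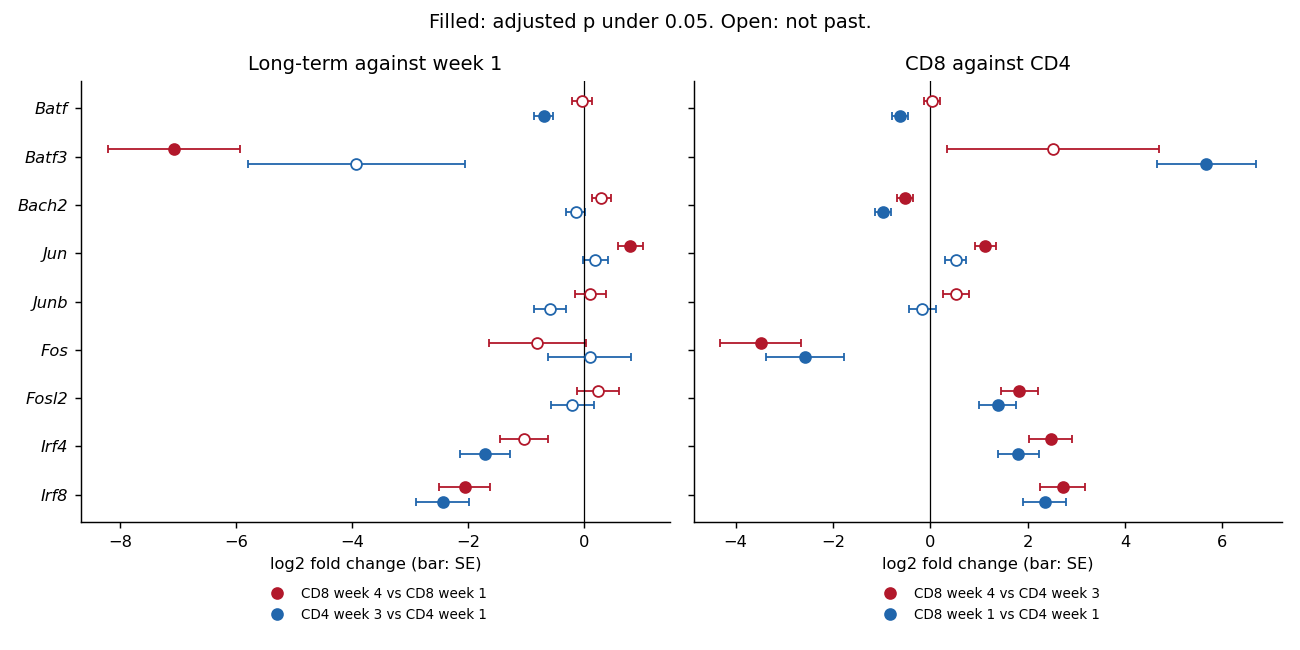
Log2 fold change of each gene (horizontal axis) with its SE (bar) in the long-term comparisons (left) and the CD8 against CD4 comparisons (right), from edgeR with n = 5 libraries per group. Filled points have an adjusted p under 0.05. Irf8 is filled in all 4 comparisons, and Junb in 0 of the 4.

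Batf, which pairs with JUN proteins and IRF4 in T cells, had 23.8, 23.7, 19.5, 21.8 and 29.0 CPM in the CD8 week 4 libraries, against 19.3, 25.9, 27.7, 23.4 and 24.0 CPM at CD8 week 1. The groups overlapped throughout (log2 fold change -0.03, SE 0.17, adjusted p = 0.900, edgeR). In CD4 cells it had 22.3, 27.0, 22.7, 18.5 and 24.3 CPM at week 3, against 48.3, 47.9, 34.7, 30.3 and 24.3 CPM at week 1. Of the week 1 libraries 4 lay above all of week 3, and replicate 5 lay within the week 3 range. Batf fell in CD4 cells by 0.69 on the log2 scale (SE 0.17, adjusted p = 0.0118), and all 5 week 3 libraries lay below the week 1 mean. The CD4 week 1 group was thus the highest of the 4 at 37.1 ± 10.7 CPM, and the other 3 means lay between 22.97 and 24.1 CPM with overlapping libraries. At week 1 Batf was lower in CD8 than in CD4 cells (-0.62, SE 0.17, adjusted p = 0.00699). The CD8 change minus the CD4 change was 0.66 (SE 0.24), with an unadjusted p of 0.0122 and an adjusted p of 0.247.

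Batf3, a close relative of Batf best known for the development of type 1 dendritic cells, was nearly absent outside CD8 week 1. It had 0.214, 0.0563, 0, 0.0804 and 0 CPM at CD8 week 4, against 13.02, 31.5, 0.352, 7.21 and 4.14 CPM at CD8 week 1. No week 4 library reached the lowest week 1 library, replicate 3, which itself stood far below the other 4. Batf3 had enough reads to be tested mainly through CD8 week 1, where it was high, so its p-values against that group are descriptive. The change in CD8 cells was -7.08 on the log2 scale (SE 1.14, adjusted p = 0.000316, edgeR). It rests on 9 summed counts at week 4 against 1044 at week 1, a ratio of 138 on the CPM scale with an exact counting interval of 72.6 to 303 that leaves the spread between libraries out. Leaving out CD8 week 1 replicate 2 gave a log2 change of -6.23, and leaving out CD8 week 4 replicate 1 one of -8.10. In CD4 cells the gene had 1 summed count at week 3, against 24 at week 1, of which replicate 2 held most with 0.894 CPM (adjusted p = 0.152), 23.98 times lower at week 3 on the CPM scale (counting interval 3.91 to 986). Against CD4 week 1, Batf3 was higher at CD8 week 1 by 5.67 (SE 1.016, adjusted p = 0.000309), although CD8 week 1 replicate 3 lay below CD4 week 1 replicate 2. That difference was 4.81 without CD8 week 1 replicate 2 and 7.56 without CD4 week 1 replicate 2. Among 8 genes that mark type 1 dendritic cells, Clec9a was at 0 in all 20 libraries and Xcr1, Flt3 and Cadm1 were at most 0.0269 CPM in any group mean. Their list summed to 15.8 to 57.3 CPM at CD8 week 4, 12.1 to 47.6 at CD8 week 1, 13.4 to 19.1 at CD4 week 3 and 8.98 to 15.9 at CD4 week 1, nearly all of it Naaa and, in CD8 cells, Itgax. Wdfy4 of this list was called in the same directions as Batf3, at 0.465 ± 0.409 CPM at CD8 week 4, against 2.07 ± 1.63 at CD8 week 1 (-2.15, adjusted p = 0.0306, edgeR). At CD8 week 1 it was highest in replicate 2 and lowest in replicate 3, as Batf3 was, and it was higher there than at CD4 week 1, with 0.0422 ± 0.0287 CPM (5.39, adjusted p = 0.000356). Itgax, which encodes CD11c, was higher in CD8 than in CD4 cells by 7.12 at week 1 and 6.51 late (adjusted p = 0.000238 and 0.000215) and was not called over time. Wdfy4 was testable mainly through CD8 week 1, where it was high, so its p-values against that group are descriptive. The part of these genes in the Batf3 differences was not tested.

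Jun, the partner shared by FOS and BATF proteins, rose in CD8 cells. It had 270, 273, 182, 248 and 272 CPM at CD8 week 4, against 146, 129, 175, 130 and 132 CPM at CD8 week 1. The groups did not overlap, although the lowest week 4 library and the highest week 1 library, both replicate 3, were close. The log2 fold change was 0.81 (SE 0.22, adjusted p = 0.00887, edgeR). Within title range B it was 0.97 (adjusted p = 0.00027), and within title range A 0.67, where the call was lost (adjusted p = 0.0946). In CD4 cells Jun had 118, 104, 146, 108 and 93.2 CPM at week 3, against 73.9, 72.8, 171, 116 and 63.0 CPM at week 1. These groups overlapped, with the week 1 libraries the more spread (0.20, SE 0.22). Jun was higher at CD8 week 4 than at CD4 week 3 by 1.13 (SE 0.22, adjusted p = 0.000654), without overlap. At week 1 the CD8 mean was higher by 0.52 and missed the threshold (adjusted p = 0.0646), but the call was made without CD4 week 1 replicate 3 (0.81, adjusted p = 0.00179), with DESeq2 (0.0427) and with limma-voom (0.0263).

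Junb, which can replace JUN in dimers with BATF, had 219, 219, 165, 136 and 113 CPM at CD8 week 4, against 153, 176, 96.0, 175 and 188 CPM at CD8 week 1. The ranges overlapped over most of their length (0.11, adjusted p = 0.777, edgeR). The title ranges went apart: within A the log2 fold change was 0.49 (adjusted p = 0.266) and within B -0.56 (adjusted p = 0.00613). In CD4 cells Junb had 203, 111, 93.6, 91.7 and 90.0 CPM at week 3, against 118, 180, 279, 177 and 128 CPM at week 1. Of the week 3 libraries 4 lay below all of week 1, and replicate 1 lay above 4 of them. The change of -0.58 did not pass (adjusted p = 0.144), and without CD4 week 3 replicate 1 it was -0.87 (adjusted p = 0.035). Neither comparison between the cell types passed, and CD8 week 4 against CD4 week 3 did so without the same library (0.82, adjusted p = 0.0211).

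Fos, the immediate early partner of JUN, was low in CD8 cells. It had 0.321, 0.169, 2.02, 0.563 and 0.740 CPM at CD8 week 4, against 0.156, 0.179, 3.22, 1.34 and 1.73 CPM at CD8 week 1. Replicate 3 was the highest of both groups, and the change was not called (-0.80, adjusted p = 0.487, edgeR). In CD4 cells it had 22.96, 12.5, 2.18, 2.78 and 1.94 CPM at week 3, against 5.52, 5.97, 13.6, 8.03 and 6.33 CPM at week 1. Of the week 3 libraries 1 lay above and 3 lay below all of week 1 (0.10, SE 0.72). Fos was lower at CD8 week 1 than at CD4 week 1 without overlap (-2.58, SE 0.80, adjusted p = 0.0159), and lower at CD8 week 4 than at CD4 week 3 (-3.48, SE 0.83, adjusted p = 0.00354), where CD8 replicate 3 at 2.02 CPM passed the lowest CD4 library. Single libraries moved the size: the week 1 difference was -3.21 without CD8 week 1 replicate 3, and the late one was -2.68 without CD4 week 3 replicate 1 and -4.20 without CD8 week 4 replicate 3.

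Fosl2, which encodes the FOS protein FRA2, had 144, 175, 76.5, 87.0 and 60.4 CPM at CD8 week 4, against 66.2, 79.1, 112, 100 and 98.7 CPM at CD8 week 1. Replicates 1 and 2 of week 4 lay above all week 1 libraries and the others within or below them, and the change was not called (0.25, adjusted p = 0.633, edgeR). Without those libraries it was -0.29. In CD4 cells it had 27.6, 54.0, 20.2, 16.9 and 34.0 CPM at week 3, against 21.4, 68.4, 20.996, 21.4 and 42.6 CPM at week 1, with full overlap (-0.19). Fosl2 was higher in CD8 cells both at week 1 (1.38, SE 0.38, adjusted p = 0.00726) and late (1.83, SE 0.38, adjusted p = 0.00123). CD4 week 1 replicate 2 lay above the lowest CD8 week 1 library, and the late groups did not overlap. Without CD8 week 4 replicates 1 and 2 the late difference was still called, with the lowest value of all alternatives at 1.29 (adjusted p = 0.0263).

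Bach2, the repressor, was lower in CD8 than in CD4 cells. It had 77.5, 82.5, 74.0, 122 and 89.8 CPM at CD8 week 4, against 54.5, 52.6, 94.5, 82.6 and 77.2 CPM at CD8 week 1. The groups overlapped (0.30, SE 0.16, adjusted p = 0.161, edgeR), and without CD8 week 1 replicate 3 the change was called (0.42, adjusted p = 0.0484). In CD4 cells it had 127, 102, 126, 130 and 158 CPM at week 3, against 146, 159, 127, 127 and 149 CPM at week 1, again with overlap (-0.14). All CD8 week 1 libraries lay below all CD4 week 1 libraries (-0.97, SE 0.16, adjusted p = 0.000183). CD8 week 4 was lower than CD4 week 3 by a smaller amount (-0.53, SE 0.16, adjusted p = 0.0181), with CD8 replicate 4 inside the CD4 range. This call did not hold once CD8 week 4 replicate 1 was left out (adjusted p = 0.0514), nor once CD4 week 3 replicate 5 was (0.0555), nor without both CD8 week 4 replicates 1 and 2 (0.137). The change in CD8 minus the change in CD4 cells was 0.44 (SE 0.23, adjusted p = 0.479).

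Irf4, which binds with BATF-JUN dimers and scales with T cell receptor signal strength in mouse T cells, had 56.5, 61.7, 25.3, 29.2 and 45.3 CPM at CD8 week 4, against 117, 121, 57.3, 78.1 and 73.2 CPM at CD8 week 1. Of the week 1 libraries only replicate 3 lay within the range of week 4. The change of -1.03 (SE 0.42) missed the threshold with edgeR (adjusted p = 0.0626). It was called with DESeq2 (0.0337), with limma-voom (0.0169), in a fit of the CD8 libraries alone (0.0153) and without CD8 week 1 replicate 3 (-1.16, adjusted p = 0.0432). Within title ranges A and B it was -1.06 (adjusted p = 0.175) and -1.04 (adjusted p = 0.0072). In CD4 cells Irf4 had 6.30, 17.2, 8.78, 4.51 and 2.45 CPM at week 3, against 30.7, 43.7, 25.0, 14.3 and 13.96 CPM at week 1. Only week 3 replicate 2 reached the week 1 range. Irf4 fell there by 1.70 (SE 0.43, adjusted p = 0.0145), a call lost in a fit of the CD4 libraries alone (adjusted p = 0.057).

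Irf4 was higher in CD8 than in CD4 cells by 1.81 at week 1 (SE 0.43, adjusted p = 0.00282) and by 2.47 in the late groups (SE 0.44, adjusted p = 0.000331), without overlap in either. Its mean was highest at CD8 week 1, then at CD8 week 4, then in CD4 cells at week 1, and lowest in CD4 cells at week 3, and each group shared part of its range with the next.

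Irf8, the closest relative of Irf4 and a known regulator of myeloid, dendritic and B cells that activated CD8 T cells also express, had 44.5, 48.9, 20.2, 15.6 and 22.7 CPM at CD8 week 4, against 122, 113, 206, 99.2 and 91.8 CPM at CD8 week 1. The groups lay far apart, with CD8 week 1 replicate 3 the highest of all 20 libraries. Irf8 fell by 2.06 on the log2 scale (SE 0.44, adjusted p = 0.00204, edgeR), by 1.97 within title range A (adjusted p = 0.0411) and by 2.34 within title range B (adjusted p = 0.000258). Without CD8 week 4 replicates 1 and 2, the highest of their group, the fall was -2.69. In CD4 cells it had 4.69, 10.5, 2.48, 2.73 and 2.62 CPM at week 3, against 20.04, 37.4, 39.3, 13.4 and 14.1 CPM at week 1. These groups did not overlap either, and the change was -2.43 (SE 0.46, adjusted p = 0.00288).

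At week 1 Irf8 was higher in CD8 than in CD4 cells by 2.35 (SE 0.44, adjusted p = 0.000469), and in the late groups by 2.72 (SE 0.46, adjusted p = 0.000195; 2.08 without CD8 week 4 replicates 1 and 2). Both differences were without overlap. The CD8 week 4 and CD4 week 1 libraries had similar levels, 15.6 to 48.9 and 13.4 to 39.3 CPM. Markers of other cells that express Irf8 or Bach2 were measured beside them. In the B cell list of 7 genes Cd79b, at 4.88 ± 3.33 CPM at CD8 week 4, 9.97 ± 1.49 at CD8 week 1, 0.594 ± 0.400 at CD4 week 3 and 0.738 ± 0.329 at CD4 week 1, made up most of the sum, while Ms4a1 stood at most at 0.130 CPM in any group mean. The 7 monocyte and macrophage genes summed to at most 1.51 CPM in any library. The 5 NK cell genes, mostly Eomes, summed to 200 to 340 CPM at CD8 week 4 and 179 to 355 at CD8 week 1. In CD4 cells they summed to 0.888 to 9.85 CPM at week 3 and 0.333 to 22.9 at week 1. Of the 3 that could be tested, 3 were higher in CD8 than in CD4 cells in both comparisons, as Irf8 was, and 0 were called over time. The 4 plasmacytoid dendritic cell genes summed to 82.96 to 126 CPM at CD8 week 4, 88.8 to 110 at CD8 week 1, 52.5 to 112 at CD4 week 3 and 47.4 to 422 at CD4 week 1. Most of that sum was Bst2, which was called in 0 of the 5 comparisons, and Siglech was at 0 in all 20 libraries. In CD8 against CD4 cells, Bst2 and Tcf4 of that list were -0.62 and -0.35 at week 1, opposite to Irf8. Late they were 0.36 and 0.45, and none of these differences was called. Ccr9 of that list, also known as a homing receptor of T cells, was called in the directions of Irf8 in CD8 cells, at 0.0871 ± 0.0469 CPM at CD8 week 4, against 2.16 ± 0.817 at CD8 week 1 (-4.53, adjusted p = 6.64e-06, edgeR). It was also higher at CD8 week 1 than at CD4 week 1, where the 5 libraries held 1 count in sum (adjusted p = 1.01e-07). Ccr9 was testable mainly through CD8 week 1, where it was high, so these p-values are descriptive. Cd79b was higher in CD8 than in CD4 cells, as Irf8 was, and the part of Cd79b, Ccr9 and the NK cell genes in the Irf8 differences was not tested.

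**Figure D3:**
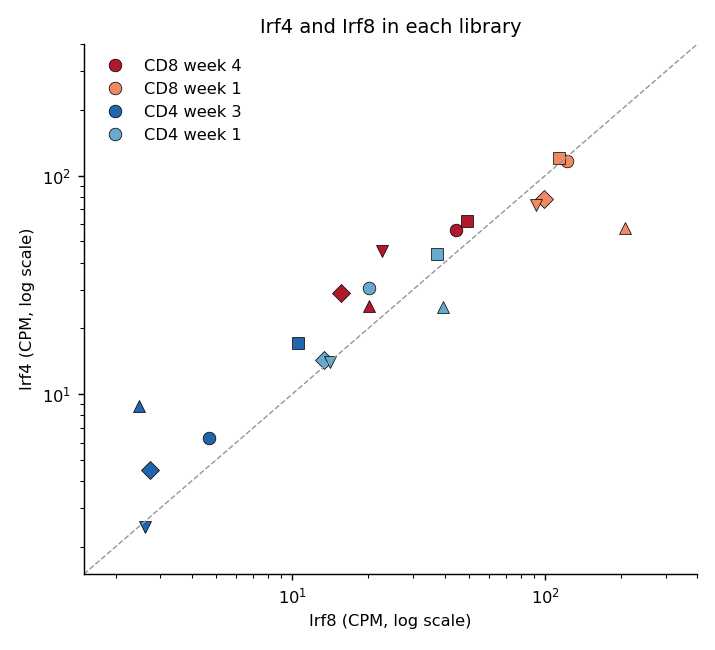
Irf4 (vertical axis) against Irf8 (horizontal axis) in CPM per library on log scales, with the colour for the group and the point shape for the replicate number. The dashed line marks a ratio of 1 in CPM, which is not corrected for gene length. CD8 week 1 replicate 3 (206 CPM of Irf8, 57.3 CPM of Irf4) lies furthest to the right of the line, and all CD8 week 4 libraries lie to its left.

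Irf4 and Irf8 varied together. Over the 20 libraries Pearson's r of their log2 CPM was 0.93, the highest of the 36 pairs among the 9 genes, and Bach2 with Irf4 had the lowest at -0.74. These values take in the differences between the groups and the libraries share their title ranges, so they describe the groups as much as the libraries. The ratio of Irf4 to Irf8 in CPM was 1.53 ± 0.369 at CD8 week 4, against 0.778 ± 0.303 at CD8 week 1, and 1.82 ± 1.00 at CD4 week 3, against 1.08 ± 0.323 at CD4 week 1. The CD8 groups did not overlap in this ratio, with 1.25 to 1.99 at week 4 and 0.278 to 1.07 at week 1, whereas the CD4 groups did.

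Levels of different genes were compared as CPM per kilobase of merged exons. On that scale Jun and Junb were the most abundant of the 7 bZIP genes in every CD8 group, at 78.1 ± 12.2 and 74.0 ± 20.9 CPM per kb at CD8 week 4, against 44.7 ± 6.05 and 68.4 ± 15.9 at CD8 week 1. Jun had 35.7 ± 6.26 CPM per kb at CD4 week 3, against 31.2 ± 14.1 at CD4 week 1, where Batf with 38.8 ± 11.2 CPM per kb stood above it in the mean. As a share of the summed CPM per kb of the 7 genes, Jun held 39.8 ± 5.24% at CD8 week 4, against 27.8 ± 5.78% at CD8 week 1, and 27.9 ± 5.86% at CD4 week 3, against 18.1 ± 4.43% at CD4 week 1. Junb held 37.2 ± 6.999% at CD8 week 4, against 41.8 ± 7.88% at CD8 week 1, and 38.2 ± 7.23% at CD4 week 3, against 44.8 ± 6.04% at CD4 week 1. The libraries overlapped in this share in both cell types. Batf held 12.7 ± 2.48% at CD8 week 4, against 15.6 ± 2.37% at CD8 week 1, and 18.8 ± 3.56% at CD4 week 3, against 23.8 ± 7.77% at CD4 week 1. Bach2 held 4.66 ± 1.35% and 4.52 ± 1.33% at CD8 week 4 and week 1, and 10.2 ± 2.78% and 8.95 ± 2.51% at CD4 week 3 and week 1. The share of Fos was at most 0.925% in any CD8 library and at least 0.725% in the CD4 libraries. Shares of a fixed sum move against one another, so they are not independent of the levels above.

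**Figure D4:**
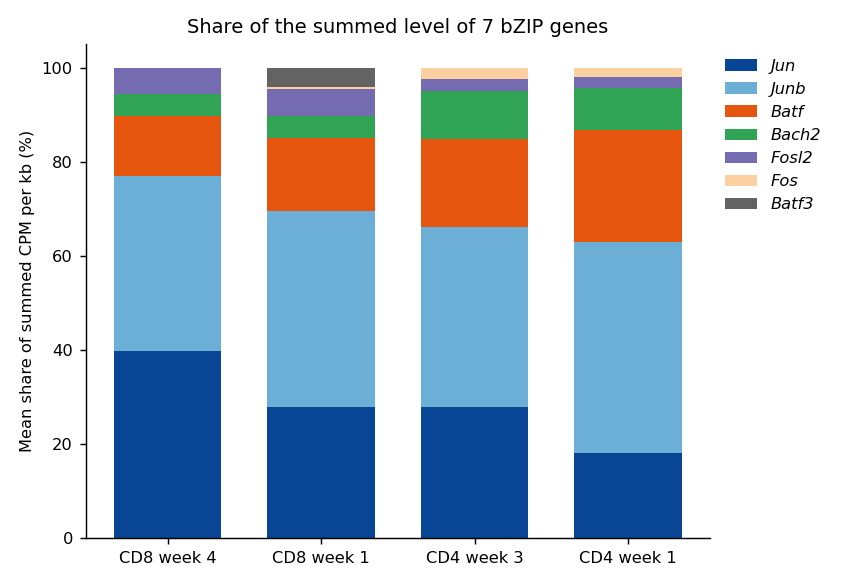
Mean share (vertical axis, %, n = 5 libraries) of each bZIP gene in the summed CPM per kilobase of the 7 genes, for each group (horizontal axis). Jun takes 39.8% of the bar at CD8 week 4 and 18.1% at CD4 week 1, and Batf3 is visible at CD8 week 1 alone, at 4.17%.

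The ratio of Jun to Batf in CPM was 9.36 to 11.5 in the CD8 week 4 libraries, against 4.97 to 7.57 at CD8 week 1, so the groups did not overlap. It was 3.83 to 6.41 at CD4 week 3, against 1.52 to 4.93 at CD4 week 1, with overlap. The ratio of Bach2 to Batf was 3.85 ± 1.01 at CD8 week 4, against 3.00 ± 0.606 at CD8 week 1, and 5.70 ± 1.24 at CD4 week 3, against 4.07 ± 1.25 at CD4 week 1, with overlapping libraries in both cell types. The ratio of Batf to Irf4 in CPM per kilobase was 0.816 to 3.80 in the CD8 libraries and 5.41 to 48.9 in the CD4 libraries, which did not overlap. CD4 week 3 replicate 5, the library with the least Irf4, held the highest value.

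For each of the 9 genes, the tested genes whose log2 CPM ran most alike over the 20 libraries were taken as a description. The highest Pearson's r was 0.97 for Irf4 (with B4galt5) and for Irf8 (with Mapkapk2), 0.95 for Batf3 (with Tnfrsf8, which encodes CD30) and for Fosl2 (with Kcnk7), 0.93 for Bach2 (with Dgka, a diacylglycerol kinase) and 0.91 for Fos (with Lat, an adaptor of the T cell receptor). It was 0.90 for Jun (with Sema4a) and 0.86 for Batf (with Chmp4b). Junb had the least, 0.76, with Rgs1. All these values include the differences between the 4 groups.

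Of 8 other AP-1 and ATF genes, 6 could be tested. Atf7 rose and Atf3, a stress-induced member, fell in both cell types. Atf3 had 0.356 ± 0.229 CPM at CD8 week 4, against 4.37 ± 2.81 at CD8 week 1 (-3.60, SE 1.03, adjusted p = 0.0128, edgeR), and 0.105 ± 0.0965 at CD4 week 3, against 2.24 ± 4.40 at CD4 week 1 (-4.33, SE 1.19, adjusted p = 0.0202), where replicate 2 alone held 10.1 CPM. The CD4 call was lost without that library, without CD4 week 3 replicate 3 and without CD4 week 3 replicate 4 (adjusted p up to 0.274). Atf7 changed by 0.55 in CD8 and 0.33 in CD4 cells (adjusted p = 0.0001 and 0.00932). Jdp2, a repressor of AP-1 sites, was higher in CD8 than in CD4 cells without overlap, at 11.4 ± 2.63 CPM at CD8 week 1, against 1.55 ± 0.674 at CD4 week 1 (2.88, adjusted p = 7.41e-06), and at 8.501 ± 3.18 CPM at CD8 week 4, against 0.863 ± 0.304 at CD4 week 3 (3.29, adjusted p = 2.31e-06). Jund stood at only 0.503 to 0.787 CPM in the group means and Fosb at 0.842 to 3.04 CPM, and neither passed in a long-term comparison. Fosl1, at most at 0.230 CPM, and Batf2, at most at 0.0729 CPM, were not tested.

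Of 6 BACH and MAF partner genes, 3 rose in CD8 cells, and 2 rose and 1 fell in CD4 cells. Bach1, the paralogue of Bach2, rose in both, to 49.4 ± 3.67 CPM at CD8 week 4, against 33.8 ± 4.99 at CD8 week 1 (0.55, SE 0.12, adjusted p = 0.00236), and to 51.9 ± 6.32 at CD4 week 3, against 36.2 ± 6.00 at CD4 week 1 (0.52, SE 0.12, adjusted p = 0.00817). Maf, a large MAF protein of cytokine-producing T cells, rose in CD8 cells to 3.36 ± 2.71 CPM, against 0.988 ± 0.397, and fell in CD4 cells to 2.36 ± 0.931 CPM, against 7.75 ± 7.14. The difference between these changes was 3.47 (SE 0.78, adjusted p = 0.0458). These Maf calls hung on single libraries: with 1 library left out, the CD8 call was lost in 3 of 10 fits, the CD4 call in 6 of 10 and the difference in 17 of 20. Nfe2l2, which binds related sites with small MAF proteins, rose in CD8 cells (0.68, adjusted p = 0.0338), a call lost in 6 of 10 such fits. Mafg, a small MAF, rose in CD4 cells (0.42, adjusted p = 0.0185), a call lost in 2 of 10, without CD4 week 3 replicate 3 and without replicate 4.

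Of 9 other IRF genes and ETS partners, 7 were tested. In CD8 cells 1 rose, Irf3 (0.33, adjusted p = 0.0138), and in CD4 cells 0 passed with edgeR. Irf2 and Irf3 were lower at CD8 week 1 than at CD4 week 1 (-0.58 and -0.35), and 0 passed in the late groups. Of 13 kinases and factors upstream of AP-1, 4 rose in CD8 cells and 1 fell in CD4 cells, Mapk9, which encodes JNK2 (-0.28, adjusted p = 0.0134). The CD8 rises included Nfatc2, the T cell NFAT1 (0.50, adjusted p = 0.00806), and Mapk14, the p38 alpha kinase (0.34, adjusted p = 0.0057). Nfkb1 and Mapk3, which encodes ERK1, were higher in CD8 than in CD4 cells in both comparisons.

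Of 5 genes known in mouse T cells as targets of BATF and IRF4, Il10, Il17a and Il21 had too few reads. Ctla4, the inhibitory receptor, fell in both cell types, to 10.8 ± 4.43 CPM at CD8 week 4, against 20.6 ± 5.45 at CD8 week 1 (-0.93, adjusted p = 0.0385), and to 6.06 ± 2.87 at CD4 week 3, against 16.8 ± 2.06 at CD4 week 1 (-1.47, adjusted p = 0.00921). With 1 library left out, the CD8 call was lost in 7 of 10 fits and the CD4 call in 0 of 10. Prdm1, which encodes BLIMP1 and is also known as repressed by BACH2, did not pass over time and was higher at CD8 week 1, with 13.4 ± 2.71 CPM, than at CD4 week 1, with 6.73 ± 3.67 (1.00, adjusted p = 0.047), a call lost in 7 of 10 such fits.

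Of 7 genes known in mouse T cells as repressed by BACH2, 5 were tested. Il1rl1, the IL-33 receptor, fell in CD8 cells and rose in CD4 cells. It had 0.0357, 0, 0.0518, 0 and 0 CPM at CD8 week 4, against 0.726, 0.834, 0.117, 0.636 and 0.151 CPM at CD8 week 1. In CD4 cells it had 38.5, 22.7, 45.7, 32.9 and 16.4 CPM at week 3, against 0.207, 0.376, 0.800, 1.09 and 0 CPM at week 1. The groups did not overlap in either cell type, and both changes were called (5.97, SE 0.59, adjusted p = 1.7e-05, in CD4 cells, and -4.46, SE 1.06, adjusted p = 0.00418, in CD8 cells, where 2 summed counts at week 4 against 50 at week 1 were 29.8 times lower on the CPM scale, counting interval 7.83 to 253). The difference between the changes was -10.44 (SE 1.11, adjusted p = 9.36e-05). Most reads of Il1rl1 came from CD4 week 3, with 3555 summed counts, against 56 at CD4 week 1. Its p-values that draw on CD4 week 3 are therefore descriptive. Bach2 itself did not pass over time in either cell type. Gata3, the type 2 helper factor, was lower in CD8 cells in both comparisons (-1.31 at week 1 and -1.57 late), and so was Il4, while Ccr4 was lower in CD8 cells in the late comparison (-1.83, adjusted p = 0.0128).

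Of 17 immediate early and heat shock genes outside the AP-1 family, 15 were tested, 2 rose and 1 fell in CD8 cells and 3 fell in CD4 cells. Nr4a1, which reports receptor signals, fell in both (-2.78, adjusted p = 0.00603, and -2.63, adjusted p = 0.0189), while Ier5 and Btg2 rose in CD8 cells (0.80 and 0.94). Egr3 and Hspa8 fell in CD4 cells, calls lost in 5 and 6 of 10 fits without 1 library, as the Nr4a1 call there was in 3. Ier3 was higher in CD8 than in CD4 cells by 5.59 at week 1 and 4.71 late. These genes respond to handling and sorting as well as to receptor signals. Their sum was 2513 to 3035 CPM at CD8 week 4, against 2443 to 2764 at CD8 week 1, and 2391 to 2731 at CD4 week 3, against 2550 to 3032 at CD4 week 1. Hspa8 alone had group means of 1259 to 1549 CPM, so the sum says little of the immediate early genes. Replicate 3 had both the highest sum and the most Fos at CD8 week 4, CD8 week 1 and CD4 week 1. At CD4 week 3 the highest sum was in replicate 5, which had the least Fos. The part of these genes in the Jun and Fos values was not tested.

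**Figure D5:**
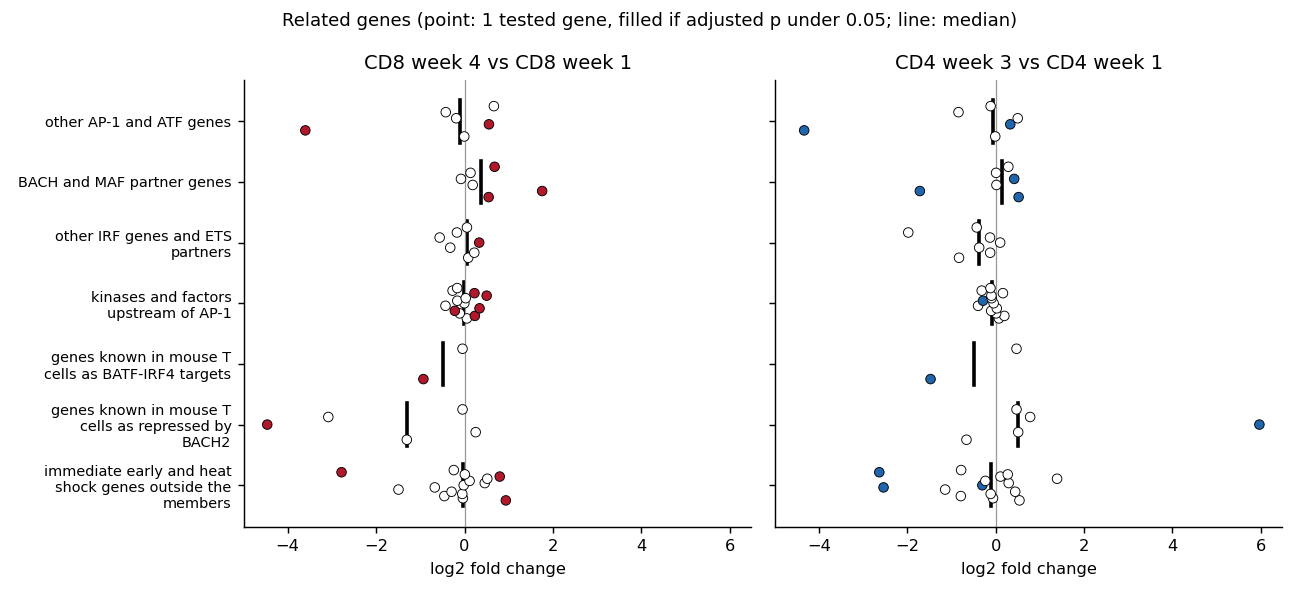
Log2 fold change (horizontal axis) of the tested genes in 7 lists of related genes, at CD8 week 4 against week 1 (left) and CD4 week 3 against week 1 (right), from edgeR with n = 5 libraries per group. Filled points have an adjusted p under 0.05 and vertical lines are list medians. Il1rl1 stands at the far left in CD8 cells (-4.46) and at the far right in CD4 cells (5.97).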

How the data were processed

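The table that the authors deposited holds raw counts for each gene. Per the submitters' processing notes and the file headers, the authors aligned reads with STAR to mm10 and counted exon reads with featureCounts 1.6.3, reversely stranded, on GENCODE M12 (GRCm38), leaving out reads of several places or genes. Of 49671 genes 49326 were named. Exons of the 9 genes share no bases with another gene on their strand. On the other strand Bach2 shares 537, Jun 232 and Junb 173 bases. Of the related genes checked, Jund shares 877 of its 1668 exon bases there and Maf 440. The part of this overlap in the low Jund level was not tested.

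Counts were tested with edgeR 4.0.16 (R 4.3.3): filterByExpr, TMM, quasi-likelihood F tests on 4 group means, Benjamini-Hochberg adjustment over 13290 genes, SE from the F statistic. Log2 CPM used a prior count of 2. The test was tested on simulated data. For the difference of changes it called 9% of genes changed 1.5-fold and 43.3% of those changed 2-fold. These shares were 46.3 and 67.2% for the CD8 change, and 37.3 and 58.2% for the CD4 change. The 0 of 9 genes called for the difference can thus leave changes of these sizes unseen. Each simulation changed 67 genes 1.5-fold, 67 genes 2-fold and 66 genes 4-fold among 13290. In the data 33.5% of genes were called for the CD8 change and 16.5% for the CD4 change. The simulated shares for those changes need not hold there, since the adjustment depends on how many genes change. Replicate pairs differed beyond counting noise (chi-square per degree of freedom 6.31 to 154.3, 40 pairs), so none was merged. Floors and intervals cover counting error only, and 3 counts over a group equal 0.0263 to 0.0317 CPM. The members, lists and the rule for named genes (each member, up to 4 called genes per list and comparison with the smallest adjusted p, the 3 genes most alike) were chosen with earlier results of these data known. Alternatives used DESeq2 1.42.0 and limma 3.58.1; figures used matplotlib 3.10.9. Values of some genes in the related lists are not reported here.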

Additional observations from a re-analysis of the deposited data

Results flagged for a closer look

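Among 56 groups of 5 libraries (14 genes), 9 held a library whose gap to the rest was over 0.71 of the range, a limit that chance passes in about 1 in 20 groups. Irf8 stood at 206 CPM in CD8 week 1 replicate 3 and at 10.5 CPM in CD4 week 3 replicate 2, both the highest of their groups. The same CD8 library was highest for Fosb, at 3.17 CPM. Jun was lowest in CD8 week 4 replicate 3, at 182 CPM. In CD4 week 3 replicate 1, Junb and Jund were highest, at 203 and 0.849 CPM. Near the counting floor, Batf3 was highest in CD4 week 1 replicate 2 at 0.894 CPM and in CD4 week 3 replicate 4 at 0.0456 CPM, and Fosl1 in CD4 week 3 replicate 3 at 0.0428 CPM.

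The long-term change differed between the cell types for Maf, by 3.47 (CD8 minus CD4, edgeR, adjusted p = 0.0458; lost in 17 of 20 fits without 1 library), and for Il1rl1, by -10.44 (adjusted p = 9.36e-05). The Il1rl1 value is descriptive, since most of its reads came from CD4 week 3.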

How the results depend on the processing

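Of 998 alternative values for the 9 genes, 958 kept their direction and side of the threshold, 5 lost a call, 14 gained one and 21 turned direction, none of the last a change called above. In CD8 cells over time Batf was 0.0794 and Fosl2 -0.45 and Junb -0.56 within title range B. Junb was -0.19 and Fosl2 -0.29 without CD8 week 4 replicates 1 and 2, and Junb was -0.0478 without CD4 week 3 replicate 2 and CD8 week 1 replicate 3, settings chosen after seeing the data. In CD4 cells Fos was -0.54 with limma-voom and -0.0731 without the second pair of libraries. The difference of changes was 0.0765 for Fos with limma-voom, and -0.26 for Irf8 and -0.0939 for Fosl2 without CD8 week 4 replicates 1 and 2. Leaving out 1 library at a time gave -0.117 to 0.0291 for Batf and -0.0215 to 0.231 for Junb in CD8 cells, -0.701 to 0.388 for Fos and -0.501 to 0.199 for Fosl2 in CD4 cells, -0.278 to 0.0630 for Junb between the week 1 groups and -0.0507 to 0.0959 for Batf between the late groups.

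Genes called over time in CD8 cells were 517 within title range A, and members called 1 in A and 6 in B. Leaving out 1 library gave 3 to 5 members. In CD4 cells 1150 genes were called in the CD4 libraries alone, 1090 to 3650 with 1 library left out (3650 without CD4 week 3 replicate 2), and 4295 without CD4 week 3 replicate 2 and CD8 week 1 replicate 3. The difference of changes called 334 genes with DESeq2, 55 with no filter, 28 to 317 with 1 library left out (317 without CD8 week 1 replicate 3), 168 without CD8 week 4 replicates 1 and 2 and 357 without the other pair, and 0 members in each of 30 alternatives. CD8 week 4 against CD4 week 3 called 2585 genes without CD8 week 4 replicates 1 and 2. The cause of these shifts was not tested.

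Of 61 calls among related genes, 42 were kept without each single library. Library scaling moved the median of all genes by under 0.1 on the log2 scale. Batf3 and Fos had enough reads in too few libraries to be tested within title range A, and so had Batf3 under a filter of 5 CPM. Depth limits Batf3 at CD8 week 4 (9 summed counts) and at CD4 week 3 (1). No paired analysis was possible because the labels give no replicate numbers or animals, and numbers in accession order pair no libraries.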
